A study of Mus musculus with 4 samples.

Results

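Immediate early genes were followed across bulge cell RNA: Fos, Fosb, Fosl1, Jun, Junb, Jund and Atf3, which encode members or partners of the transcription factor AP-1, Egr1, and the response genes Ier2 and Ier3. They were taken from the count table by symbol, and all 10 were found among its 55536 genes. The bulge is the part of the hair follicle that houses its stem cells. The table holds 4 libraries from mouse skin on the C57BL/6 background: 2 from Cdh5CreERT2; Alk1 flox/flox mice, called knockouts here, and 2 from littermates without Cre, called controls. Both groups were injected with tamoxifen intraperitoneally on postnatal day 17, at 100 µg for each g of body weight, and sampled on day 20. The Cdh5 promoter directs the inducible Cre to endothelium, so the bulge cells profiled are not the cells in which Alk1 (Acvrl1), a receptor of the BMP family, was deleted. Whether the controls carry the floxed allele, whether a library pools mice and how bulge cells were isolated are points the labels do not state.

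Immediate early genes are transcribed within minutes of a growth factor, cytokine or stress signal, without new protein synthesis. MAP kinases act on the serum response factor SRF, its TCF partners and CREB at their promoters. FOS proteins bind DNA only as dimers with JUN proteins, while JUN proteins can also pair with each other. EGR1 is a zinc finger factor induced by the same signals. In skin, AP-1 genes are known to respond to wounding and to the dissociation of tissue into cells, and to take part in keratinocyte differentiation.

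RefSeq promoter sequences on GRCm38.p6 were matched for 7 of the 10 genes, all but Fosl1, Egr1 and Ier2. Of these, the 2 whose transcripts differed most between the knockout libraries, Fos and Fosb, and the 2 of highest mean CPM (depth-scaled count), Jun and Junb, are shown 5′ to 3′ so that their signal-response elements can be compared. Each run ends just before the annotated start; for Fosb, 6 bases inside the gene model are left out. The intervals are chr12:85473640-85473889 (plus strand) for Fos, chr7:19310052-19310295 (minus) for Fosb, chr4:95052223-95052472 (minus) for Jun and chr8:84978749-84978998 (minus) for Junb. Capitals mark TGACG, the core of the CREB and ATF site, and GCGNGGGCG, the EGR site.
Fos: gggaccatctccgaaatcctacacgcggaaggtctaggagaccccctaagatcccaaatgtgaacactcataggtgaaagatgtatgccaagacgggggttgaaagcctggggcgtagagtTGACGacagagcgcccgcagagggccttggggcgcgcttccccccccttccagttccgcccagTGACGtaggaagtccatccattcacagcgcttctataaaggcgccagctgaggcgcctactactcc
Fosb: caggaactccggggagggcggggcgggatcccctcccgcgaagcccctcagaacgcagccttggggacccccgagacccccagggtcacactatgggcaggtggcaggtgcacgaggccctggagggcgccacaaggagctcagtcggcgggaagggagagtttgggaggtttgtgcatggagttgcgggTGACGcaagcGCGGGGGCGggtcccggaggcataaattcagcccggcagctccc
Jun: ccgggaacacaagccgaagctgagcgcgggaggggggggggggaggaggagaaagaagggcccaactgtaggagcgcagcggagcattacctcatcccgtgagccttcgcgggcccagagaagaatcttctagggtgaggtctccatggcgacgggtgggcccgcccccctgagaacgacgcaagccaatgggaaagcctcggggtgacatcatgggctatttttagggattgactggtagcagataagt
Junb: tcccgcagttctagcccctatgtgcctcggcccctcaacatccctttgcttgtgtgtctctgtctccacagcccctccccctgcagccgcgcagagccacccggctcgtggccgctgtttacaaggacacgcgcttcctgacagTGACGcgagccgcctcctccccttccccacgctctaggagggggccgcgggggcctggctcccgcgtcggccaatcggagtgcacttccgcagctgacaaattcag

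The search covered 250 bases before to 50 bases after the RefSeq start on both strands. For Atf3 the bases before this start (191183334 to 191183583) lie inside its gene model, which runs to 191218039. For Jund they end at 70697738, ahead of its model, which begins at 70698949. TGACG was found in 4 of the 7 promoters: at -129 to -125 and at -66 to -62 in Fos, at -60 to -56 in Fosb, at -106 to -102 in Junb and at -7 to -3 in Atf3. Over all 32851 promoters of this length, 20.8% held it. This core was added after the sequences were seen; it is contained in the full site TGACGTCA, which none of the 7 held and 1.79% of all promoters did. GCGNGGGCG lay at -50 to -42 in Fosb and in no other of the 7, against 5.55% of all promoters. The CArG box, bound by SRF, and TGANTCA, the AP-1 site, were in none of the 7 windows, against 1.63% and 7.81% of all promoters. A match is a run of letters in this window, not a shown binding site. Sites outside the window, or with letters that differ from these runs, were not searched for. A window without a match therefore does not show that a gene lacks such a site.

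Library totals ran from 16326906 to 29130974 counts. Acvrl1 measured 21.6 and 24.3 CPM (scaled here on TMM effective library sizes) in controls 1 and 2, and 17.9 and 23.1 CPM in knockouts 1 and 2, which does not check the labels since deletion was directed at endothelium. The 12 bulge keratinocyte markers summed to between 71190 and 85744 CPM. Of these, Krt5 and Krt14 are shared with basal epidermis, while the hair follicle stem cell markers Krt15 and Cd34 measured 29088 to 36017 CPM and 1328 to 1949 CPM. Mitochondrially encoded genes took 0.761% to 0.878% of counts in controls 1 and 2 and knockout 1, and 1.29% in knockout 2. Differences between groups were tested with edgeR's quasi-likelihood test on all 14259 genes with enough counts, adjusted by the Benjamini-Hochberg method at a threshold of 0.05. The replicates are separate samples by their labels, and the p-values rest on the spread between these few samples, which may in part be technical.

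Of the 10 genes, 8 had enough counts to be tested, and none passed the edgeR threshold. One gene of all those tested, 0.00701%, did. At an unadjusted edgeR p under 0.05 there was none of the 8, against 10.7% of tested genes, and DESeq2 and limma-voom, which called 0.802% and 0.00701% of their genes, also called 0 of them. Log2 fold changes of knockout over control were above 0 for 7 of the 8, with Jun the exception, against 47.5% of tested genes. Their median was 0.40, against -0.021 over tested genes. That median turned to -0.21 when knockout 2 was left out, and knockout 2 was the highest of the 4 libraries for 7 of the 8 genes, against 29.9% of tested genes.

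**Figure D1:**
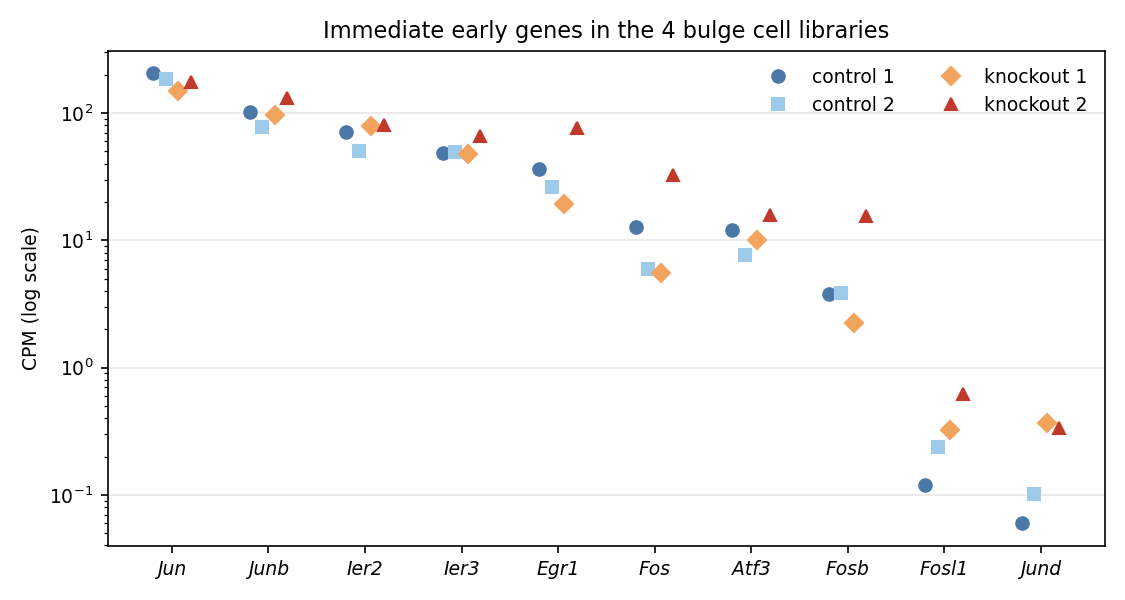
Level of each of the 10 genes in each of the 4 libraries, in CPM on a log axis, ordered by mean. Knockout 2 (triangles) lies apart from the other libraries for Egr1, Fos and Fosb (76.2, 32.4 and 15.7 CPM), while Jun lies between 150 and 206 CPM in all 4 libraries.

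Per length of transcript, Jun was the most abundant, at 56.1 ± 7.2 RPKM (CPM divided by exon length in kilobases; SD over 4 libraries). Ier3 followed at 46.7 ± 7.7, Ier2 at 46.3 ± 9.2 and Junb at 44.4 ± 9.8 RPKM. The leading gene of these 4 changed between libraries. It was Jun in controls 1 and 2 (64.6 and 57.7 RPKM), Ier2 in knockout 1 (52.1 RPKM) and Ier3 in knockout 2 (58.3 RPKM). These 4 genes stood above 93.0% (Junb) to 94.7% (Jun) of tested genes, whose median was 4.84 RPKM. Egr1 came next at 8.83 ± 5.66 RPKM, and even its highest library, knockout 2, lay below the lowest of Junb (33.7 RPKM). Fos at 6.01 ± 5.36 and Atf3 at 5.27 ± 1.58 RPKM overlapped with Egr1 and with each other. Fosb, at 1.02 ± 1.00 RPKM, lay below Atf3 in every library. With the longest transcript in place of all exons as the length, Junb measured 56.5 RPKM and the order of the leading genes changed.

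Among the FOS genes, Fos (chromosome 12, 85473890 to 85477273, GRCm38), which encodes the FOS subunit that gives AP-1 its strongest activation, stood at 12.6 and 5.93 CPM in controls 1 and 2, against 5.56 and 32.4 CPM in knockouts 1 and 2. Knockout 2 was the highest library and knockout 1 the lowest, so the groups overlapped. The fitted log2 fold change stood at 1.05 ± 0.78 (SE; edgeR adjusted p = 0.64). It was -0.72 ± 0.58 with knockout 2 left out and 1.82 ± 0.59 with knockout 1 left out (edgeR adjusted p = 0.66 and 0.29, in a range of 0.29 to 0.98 over all alternatives).

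Fosb (chromosome 7, 19302696 to 19310051), a close relative of Fos that also makes a truncated form, stood at 3.77 and 3.83 CPM in the controls, against 2.25 and 15.7 CPM in the knockouts. The controls lay within 2% of each other, between a lower knockout 1 and a higher knockout 2. The fitted log2 fold change stood at 1.23 ± 0.80 (edgeR adjusted p = 0.60). It was -0.75 ± 0.36 without knockout 2. Without knockout 1 it was 2.04 ± 0.24 and passed (edgeR adjusted p = 0.040, in a range of 0.040 to 0.98 over its alternatives), in a fit that called 0.436% of tested genes and took the spread of the lone knockout from other genes and the controls.

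Fosl1 (chromosome 19, 5447547 to 5455946), which encodes FRA-1, an AP-1 subunit of migrating and wounded keratinocytes, had 2 and 7 counts in controls and 7 and 13 in knockouts. Exact 95% Poisson intervals, which cover counting error only, were 0.24 to 7.2 and 2.8 to 14.4 counts in controls and 2.8 to 14.4 and 6.9 to 22.2 counts in knockouts. It was too sparse to test, and the intervals of all 4 libraries overlap. In CPM both knockouts lay above both controls (0.322 and 0.623 against 0.120 and 0.237), an order that 21.3% of tested genes shared. Its gene model overlaps Ccdc85b on the opposite strand over 2767 bases, and whether counting used strand is not stated in the labels.

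Jun (chromosome 4, 95049034 to 95052222), which encodes the JUN subunit that partners FOS proteins, stood at 206 and 184 CPM in the controls, against 150 and 176 CPM in the knockouts. Both knockouts lay below both controls, an order that 23.6% of tested genes shared. The fitted log2 fold change stood at -0.26 ± 0.14 (edgeR adjusted p = 0.52). It stayed below 0 in all 13 alternatives, from -0.38 to -0.15, none of which passed. Junos, an antisense gene that overlaps Jun over 689 bases, had 13 to 18 counts per library against 3264 to 5431 for Jun.

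Junb (chromosome 8, 84974484 to 84978718), a JUN protein that restrains growth in many cells, stood at 103 and 77.5 CPM in the controls, against 96.3 and 132 CPM in the knockouts. Knockout 2 was the highest and control 2 the lowest, and the groups overlapped. The fitted log2 fold change stood at 0.34 ± 0.21 (edgeR adjusted p = 0.57), and ran from 0.095 without knockout 2 to 0.56 without control 1. Its model shares 351 bases with Prdx2 on the opposite strand.

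Jund (chromosome 8, 70698949 to 70700616), the third JUN gene, had 1 and 3 counts in controls and 8 and 7 in knockouts, and was not tested. Exact 95% Poisson intervals were 0.025 to 5.6, 0.62 to 8.8, 3.5 to 15.8 and 2.8 to 14.4 counts in that order. Both knockouts lay above both controls in CPM (0.368 and 0.335 against 0.0599 and 0.102), an order that 21.3% of tested genes shared. An antisense gene, Gm11175, spans 919 of its 1668 bases and had 5 to 14 counts per library. Low expression and loss of reads in counting cannot be told apart here.

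The make-up of each family was described per length, with Fosl2, the FOS gene that encodes FRA-2, added from the list of AP-1 relatives. Fosl2 made up 86.1% and 91.6% of FOS family RPKM in controls 1 and 2, 91.3% in knockout 1 and 64.6% in knockout 2. Fos made up 12.4%, 6.49%, 7.17% and 29.4% in the same order. Knockout 2 thus held the smallest share of Fosl2 and the largest of Fos, while its level of Fosl2 (30.2 RPKM) was close to that of knockout 1 (30.1 RPKM). The summed FOS family was 43.3 and 38.8 RPKM in controls and 33.0 and 46.8 RPKM in knockouts. In the JUN family, Jun made up 59.0% and 63.1% in controls and 52.8% and 49.0% in knockouts, with Junb taking nearly all of the rest. These shares rest on the 1 to 8 counts of Jund per library and would be lower for Jun and Junb if reads of Jund were lost in counting, which was not tested.

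**Figure D2:**
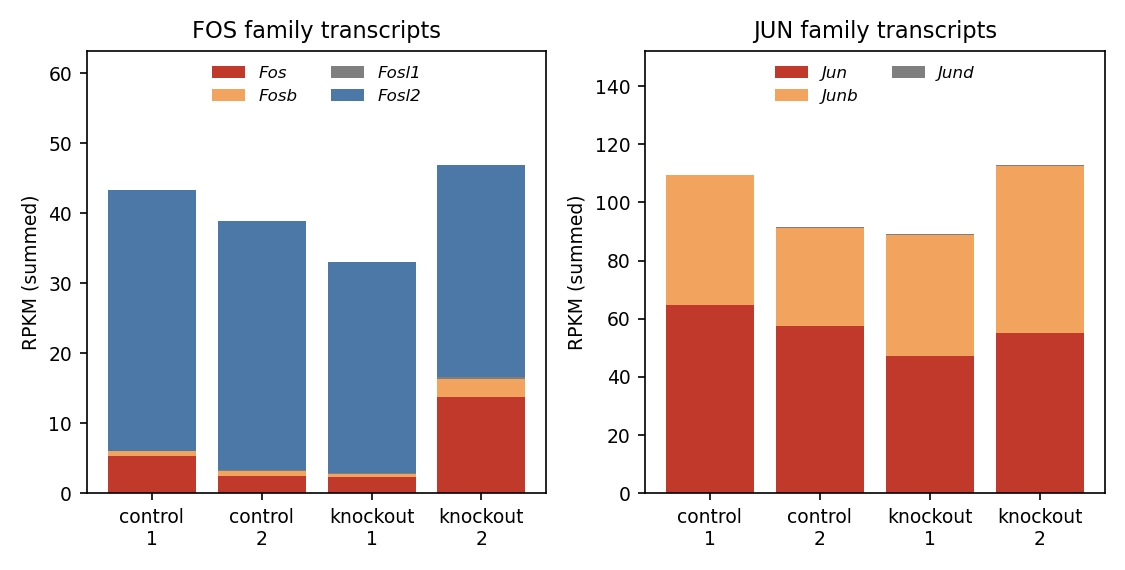
Stacked bars of RPKM for the FOS genes (left) and JUN genes (right) in each library. Fosl2 is the largest part of the FOS bar in every library, and the Fos part is 13.8 RPKM in knockout 2 against 2.36 to 5.37 RPKM in the others.

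Atf3 (chromosome 1, 191170296 to 191218039), a stress-induced factor that pairs with JUN proteins, stood at 12.03 and 7.65 CPM in the controls, against 10.02 and 15.7 CPM in the knockouts. The groups overlapped, with a log2 fold change of 0.39 ± 0.32 (edgeR adjusted p = 0.66) that ran from 0.036 without knockout 2 to 0.75 without control 1. Egr1 (chromosome 18, 34859823 to 34864984), the zinc finger factor, stood at 36.3 and 26.5 CPM in the controls, against 19.4 and 76.2 CPM in the knockouts. As for Fos, knockout 2 was highest and knockout 1 lowest. Its log2 fold change stood at 0.61 ± 0.57 (edgeR adjusted p = 0.70), -0.69 ± 0.23 without knockout 2 and 1.28 ± 0.21 without knockout 1 (edgeR adjusted p = 0.32 and 0.093, in a range of 0.093 to 0.98 over all alternatives).

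Ier2 (chromosome 8, 84661331 to 84662852), a nuclear protein of the early response, stood at 71.4 and 50.5 CPM in the controls, against 79.3 and 80.9 CPM in the knockouts. It was the one tested member with both knockouts above both controls, an order that 21.3% of tested genes shared. The fitted log2 fold change stood at 0.40 ± 0.18 (edgeR adjusted p = 0.48), and ran from 0.19 without control 2 to 0.67 without control 1. Ier3 (chromosome 17, 35821684 to 35822923), which modulates survival under stress, stood at 48.6 and 49.1 CPM in the controls, against 47.6 and 65.9 CPM in the knockouts. Controls and knockout 1 lay close together and knockout 2 above them. Its log2 fold change stood at 0.22 ± 0.18 (edgeR adjusted p = 0.67), and -0.036 without knockout 2.

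**Figure D3:**
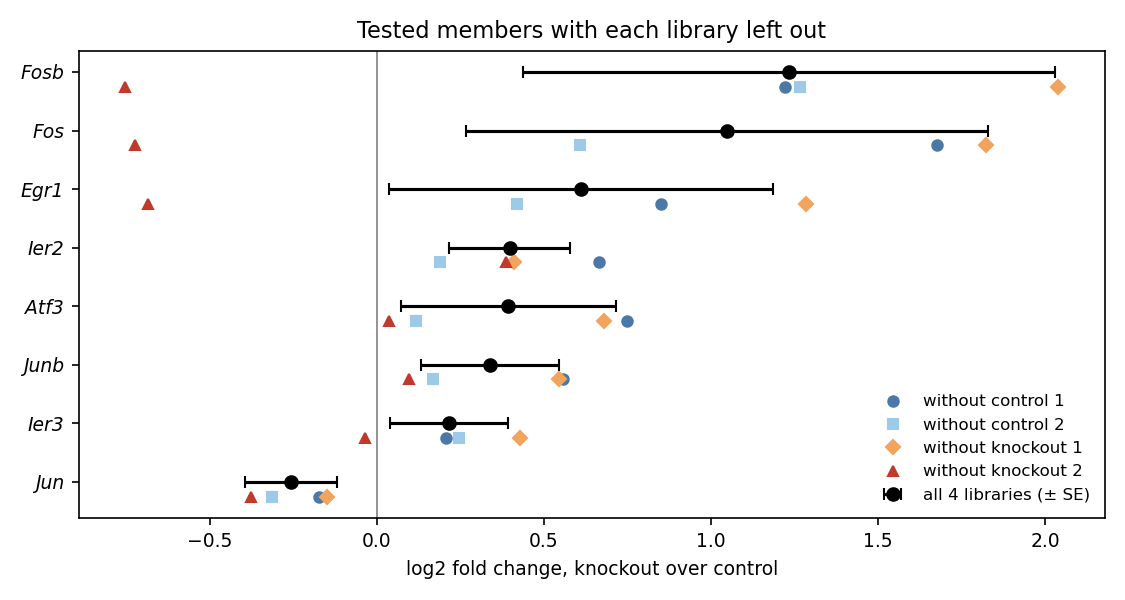
Log2 fold change (knockout over control) of the 8 tested genes: black points and bars give the edgeR estimate and SE from all 4 libraries, and coloured symbols the estimate with 1 library left out. Without knockout 2 the estimates of Fosb, Fos, Egr1 and Ier3 lie below 0, and those of Ier2, Junb, Atf3 and Jun keep their sign in every fit.

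For Fosb, Fos and Egr1 the highest and the lowest library were of the same genotype. Knockout 2 exceeded knockout 1 by 6.95-fold for Fosb, 5.83-fold for Fos and 3.92-fold for Egr1. These were 3 of the 8 tested genes past a 2-fold difference in that direction, against 4.57% of all tested genes, and 0 of the 8 passed it in the opposite direction, against 3.96%. Atf3 (1.57-fold), Ier3 (1.38-fold), Junb (1.37-fold), Jun (1.17-fold) and Ier2 (1.02-fold) differed less. Between the controls, Fos was 2.13-fold higher in control 1, and Atf3 1.57-fold, while Fosb and Ier3 were within 2% of each other. Knockout 2 was the highest and knockout 1 the lowest library for 4 of the 8 genes, Fos, Fosb, Egr1 and Ier3, against 9.81% of tested genes.

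**Figure D4:**
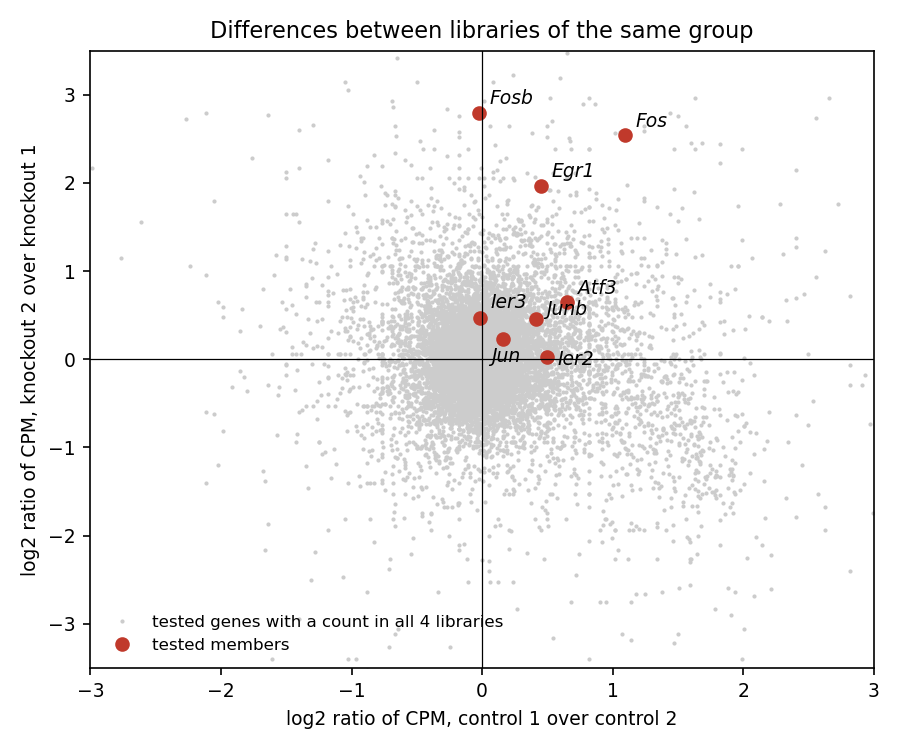
Log2 ratio of CPM between the 2 controls (horizontal) and between the 2 knockouts (vertical) for tested genes with a count in all 4 libraries (grey; 40 fall outside the axes) and for the 8 tested members (red). Fosb, Fos and Egr1 lie high on the vertical axis, at 6.95-fold, 5.83-fold and 3.92-fold.

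Markers of other cells also differed between libraries. Blood endothelial markers (9 genes) summed to 10.8 and 6.13 CPM in the controls, against 5.56 and 16.1 CPM in the knockouts. In knockout 2, 5 of the 9 were at least 2-fold above knockout 1 and Tek alone made up 10.6 CPM, while Cdh5 was at 0.14 CPM in both knockouts. Fibroblast markers (8 genes) summed to 183 and 233 CPM in the controls, against 136 and 141 CPM in the knockouts. Col1a1 and Col1a2 made up most of these sums, at 75.3 and 56.5 CPM in knockout 2. Knockout 2 was the highest library for 5 of the 8 and the lowest for 1. In it 4 of the 8 were at least 2-fold above knockout 1, where Dpt, one of them, was at 0. Col3a1 stood at 1.02 and 0.95 CPM in the controls, against 0.55 and 2.97 CPM in the knockouts. Dcn measured 0.78 and 1.22 against 0.92 and 3.26 CPM. Immune cell markers (12 genes) summed to between 50.02 and 63.8 CPM. Interfollicular differentiation markers (9 genes) summed to 13024 and 4459 CPM in the controls, against 8585 and 3994 CPM in the knockouts. Their sum was lowest in knockout 2, as were 6 of the 9 markers. The sum of the 10 sebaceous gland markers was also lowest there (511 CPM, against 610 to 1083), as were 7 of the 10. Melanocyte markers (7 genes) summed to between 10.2 and 17.4 CPM. No marker of these lists was at 0 in every library. The part of these cells, and of the mitochondrial share, in the levels of Fos, Fosb and Egr1 was not tested. In such bulk libraries, more cells that express a gene and more RNA per cell cannot be told apart.

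The profile of Fos over the 4 libraries was compared with those of 9105 other tested genes with a mean of at least 10 CPM. Predicted genes, genes with Rik symbols and pseudogenes were left out. The measure was the root mean square distance of log2 CPM centred on each gene's mean. Egr1 was the nearest, at 0.34. It was followed by Irf1 (0.34), an interferon response factor, Tfap4 (0.42), a helix-loop-helix factor, H2-Q6 (0.42), an MHC class I gene whose near-identical relatives make its counts uncertain, and Ppp1r15a (0.49), a phosphatase subunit of the stress response. The median distance was 1.03. Irf1 stood at 9.82 and 6.54 CPM in the controls, against 6.44 and 21.2 CPM in the knockouts, and Tfap4 25.6 and 19.9 against 17.5 and 54.3 CPM. Among the other members, Atf3 ranked 80, Junb 248, Ier3 603, Ier2 1307 and Jun 2856, while Fosb was under 10 CPM. These ranks rest on 4 libraries and were given no test.

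Of 17 further immediate early transcription and RNA-decay factors, none passed edgeR, DESeq2 or limma-voom. At an unadjusted edgeR p under 0.05 there was 1, against 10.7% of tested genes. The median log2 fold change of the 17 was -0.0061, which ran from -0.12 without knockout 2 to 0.20 without knockout 1. Knockout 2 was the highest library for 8 of the 17, against 29.9% of tested genes. Klf4, a factor of keratinocyte differentiation, gave -0.092 ± 0.16, and Btg1, an antiproliferative cofactor, 0.33 ± 0.23. Nr4a1, an orphan nuclear receptor induced with Fos, stood at 8.92 and 6.74 CPM in the controls, against 3.999 and 16.7 CPM in the knockouts, the same order as Fos; it was picked with its values known. Its log2 fold change was 0.41 ± 0.61, and -0.96 without knockout 2.

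Of 26 tested signalling and secreted immediate early genes, none passed the same 3 tools. At an unadjusted edgeR p under 0.05 there were 4, against 10.7% of tested genes. The median log2 fold change of the 26 was -0.032, and turned to 0.040 without control 1 and 0.053 without control 2. Ccn2, a matricellular protein, stood at 2129 and 3232 CPM in the controls, against 2680 and 2564 CPM in the knockouts (log2 fold change -0.032 ± 0.21), and Mcl1, a survival protein, gave 0.022 ± 0.12. Ppp1r15a stood at 25.9 and 16.8 CPM in the controls, against 18.8 and 44.7 CPM in the knockouts, and Dusp4, a MAP kinase phosphatase, 1.92 and 1.32 against 1.29 and 3.98 CPM. Both followed knockout 2 and were named after their values were seen.

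Of 9 tested AP-1 relatives, none passed the 3 tools. At an unadjusted edgeR p under 0.05 there were 2. Such counts, here and for the lists that follow, stand beside 10.7% of all tested genes. The median log2 fold change of the 9 was -0.13, which was 0.11 without control 1 and 0.059 with a trend on transcript length and GC content removed. Fosl2 stood at 361 and 345 CPM in the controls, against 291 and 293 CPM in the knockouts. Its log2 fold change was -0.27 ± 0.12 (edgeR adjusted p = 0.47), and -0.094 ± 0.13 with that trend removed. Maf, a large MAF factor, gave -0.34 ± 0.18, and -0.19 ± 0.19 with that trend removed. Of 8 CREB and ATF relatives, none passed (1 at an unadjusted edgeR p under 0.05), with a median of 0.0096, which ran from -0.014 to 0.068 with 1 library left out. Atf4, the factor of the integrated stress response, gave 0.23 ± 0.12 and Creb1 -0.23 ± 0.19, or -0.019 ± 0.20 with the length and GC trend removed. Of 4 tested EGR and NAB genes none passed (0 at an unadjusted edgeR p under 0.05), with a median of -0.065 that turned to 0.12 without control 1 and 0.049 without knockout 1. The EGR corepressors Nab1 and Nab2 gave 0.17 ± 0.12 and -0.18 ± 0.15. Of 21 genes of SRF, its cofactors and the MAP kinases, none passed (1 at an unadjusted edgeR p under 0.05), with a median of 0.00010, which was -0.12 without knockout 2 and 0.12 once the trend on length and GC was taken out. Mapk3, which encodes ERK1, gave 0.18 ± 0.13, and Mapkapk2, a kinase downstream of p38, 0.18 ± 0.12.

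Of 15 tested AP-1 targets of keratinocytes, none passed the 3 tools. At an unadjusted edgeR p under 0.05 there were 2, against 10.7% of tested genes. In log2 fold change 11 lay below 0 and 4 above, while 47.5% of tested genes lay above. The median of the list was -0.14, and 0.040 without control 1. Tnc, the matrix protein tenascin C, stood at 481 and 654 CPM in the controls, against 473 and 294 CPM in the knockouts. Its log2 fold change was -0.57 ± 0.26, and -0.42 ± 0.30 with the trend on length and GC removed. Lor, a cornified envelope protein, measured 1285 and 320 against 685 and 257 CPM, in the order of the interfollicular differentiation markers, of which it is one. Neither had its highest value in knockout 2, where Fos and Fosb were highest.

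Of 14 heat shock and ubiquitin genes known to respond to tissue dissociation, 11 had a log2 fold change above 0. Over all tested genes this share was 47.5%, and the median of the list was 0.21. None of the 14 passed edgeR, and 3 had an unadjusted edgeR p under 0.05, against 10.7% of tested genes. None passed limma-voom, and 2 passed DESeq2, which called 0.802% of its genes. Hspa8, a constitutive chaperone named after its values were seen, was one of them (DESeq2 log2 fold change 0.91 ± 0.14, adjusted p = 2.3e-07). Both knockouts lay above both controls for 7 of the 14, against 21.3% of tested genes, and knockout 2 was the highest library for 3, against 29.9%. Hsp90ab1, a chaperone, gave 0.22 ± 0.12 and Ubb, a polyubiquitin gene, 0.40 ± 0.14. Median centred log2 CPM of the list was -0.13 and -0.094 in controls 1 and 2, 0.25 in knockout 1 and 0.0091 in knockout 2. That of the 8 tested immediate early genes was 0.055 and -0.38 in controls 1 and 2, -0.19 in knockout 1 and 0.45 in knockout 2.

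**Figure D5:**
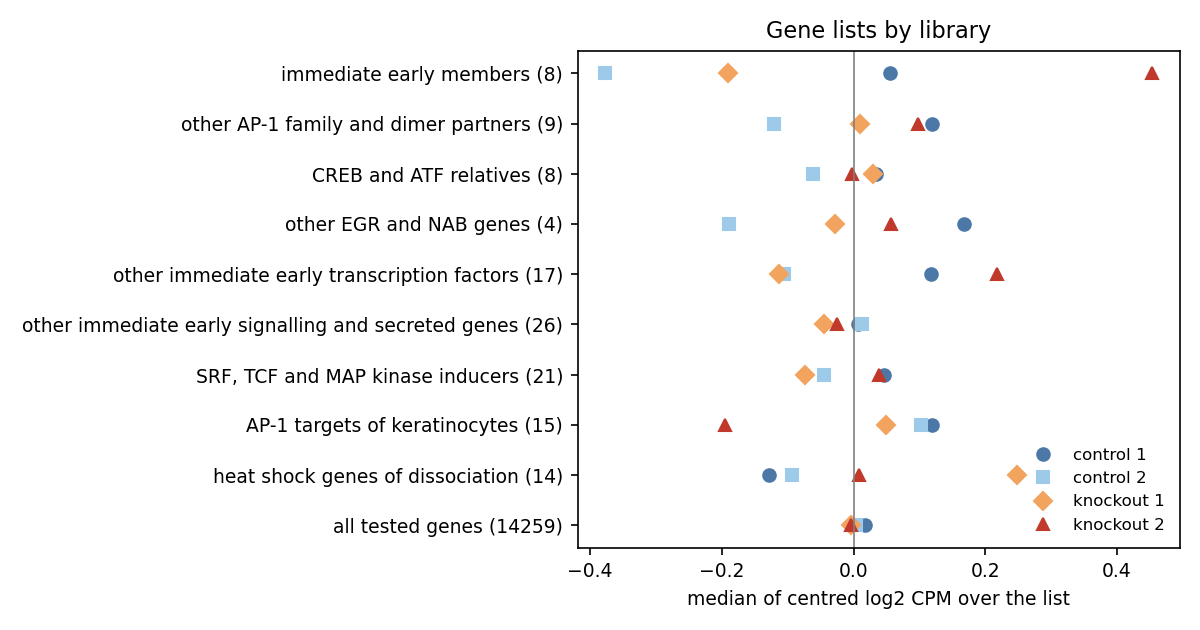
Median over each gene list of log2 CPM centred on each gene's mean over the 4 libraries, by library; the number of tested genes is in brackets. The immediate early genes spread most, from -0.38 in control 2 to 0.45 in knockout 2, and all tested genes lie within 0.02 of 0.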

How the data were processed

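The deposited values are the authors' raw counts, given for 55536 genes in 4 columns whose names match the labels. Per the submitters' processing notes, the tools were STAR 2.7.0e with GRCm38 (mm10), cutadapt, Trim Galore 0.6.0, FastQC and DESeq2 1.26.0. Libraries were directional and polyA-selected, per the labels' protocols. Neither the counting tool nor its strand setting is given in the sources used here. Symbols, positions and exon lengths came from GENCODE M21 (GRCm38), which held all 55536 identifiers.

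With R 4.3.3, genes were kept by filterByExpr of edgeR 4.0.16 (14259 genes), normalized by TMM and tested with the robust quasi-likelihood fit without covariates. CPM uses effective library sizes, RPKM the union of exons, and log2 CPM a prior count of 2. Errors of fold changes are the estimate over the root of the F statistic. DESeq2 1.42.0 and voom of limma 3.58.1 were alternatives, with RLE and upper-quartile normalization, no filter, at least 50 counts in 2 libraries, the replicate number as a block, removal of a spline trend on exon length and GC content, and each library left out. The fit was tested on simulated data. Replicates were not duplicates, with a chi-square per degree of freedom of 34.5 between controls and 45.0 between knockouts. Long genes differed between the groups. In the decile of longest exon length, median log2 CPM centred on each gene's mean was 0.11 and 0.094 in controls 1 and 2. It was -0.12 and -0.064 in knockouts 1 and 2. The 10 members were named by rule, and from each other list the members past the threshold or, with none, the 2 of highest mean CPM. The members and lists were chosen with earlier results of these data known. Protein sequences were not used here, and 1 gene called in some fits is not reported here.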

Additional observations from a re-analysis of the deposited data

How the results depend on the processing

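Of the 8 tested members, Jun, Junb, Atf3 and Ier2 kept their direction in all 13 alternatives, and no member passed in any except Fosb without knockout 1. With each library left out in turn, these signs turned: Fos (-0.72 to 1.82), Fosb (-0.75 to 2.04), Egr1 (-0.69 to 1.28), Ier3 (-0.036 to 0.43), Btg1 (-0.015 to 0.60), Nr4a1 (-0.96 to 1.10), Dusp4 (-0.31 to 1.31), Ppp1r15a (-0.18 to 1.07), Creb1 (-0.53 to 0.016) and Gadd45b (-0.90 to 0.13) without knockout 2, Klf4 (-0.28 to 0.074), Mcl1 (-0.030 to 0.071) and Ier5l (-0.48 to 0.61) without knockout 1, and Lor (-1.64 to 0.56) without control 1. Ccn2 (-0.30 to 0.32) and Spry4 (-0.85 to 0.15) turned without control 2 or knockout 2. The members' median ran from -0.21 (without knockout 2) to 0.71, with 0 to 1 members called, and 1 to 39 genes were called higher and 0 to 26 lower, against 1 and 0 with all libraries. Genes called higher and lower were 163 and 267 without a filter, 33 and 68 with DESeq2, and 2 higher after removal of the length and GC trend. With voom the fold changes of Fos, Fosb and Egr1 were 0.73, 0.62 and 0.34.

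The replicate block gave 25 higher and 81 lower, or 24 and 39 when that trend was also taken out; Fos, Fosb and Egr1 were 0.70, 0.78 and 0.34 in the first. The labels do not pair the numbers, and deviations of same-numbered libraries correlated at 0.12 over genes. List members called were 1 of the AP-1 relatives (Maff), 2 of the signalling genes (Dusp6, Errfi1), 2 of the AP-1 targets (Itga5, Tnc) and 2 of the heat shock genes (Hspa8 among them) without a filter. The replicate block, with or without the trend, and DESeq2 also called 2 heat shock genes. Junb was 56.5 RPKM by longest transcript, against 44.4. The causes were not tested. With 2 libraries per group, a single high library sets the mean of its group.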

Other observations

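Some immediate early genes had their lowest level where Fos was highest. These were chosen after their values were seen, as the members of the lists of further immediate early transcription factors (1 of 17) and signalling genes (3 of 26) at least 2-fold lower in knockout 2 than in knockout 1, against 3.96% of all tested genes. Among the other lists, 1 of 9 AP-1 relatives, 4 of 15 AP-1 targets and 1 of 14 heat shock genes passed the same fold. In the opposite direction, 1 of the 17 and 2 of the 26 were at least 2-fold higher in knockout 2, against 4.57% of tested genes. Gadd45b, a growth arrest and stress gene, stood at 26.8 and 27.2 CPM in the controls, against 29.5 and 14.5 CPM in knockouts 1 and 2. Ier5l, a relative of Ier2, stood at 28.1 and 27.5 CPM in the controls, against 42.5 and 20.02 CPM in the knockouts. Ptgs2, the inducible cyclooxygenase, measured 1.44 and 1.25 against 1.15 and 0.48 CPM. Spry4, a feedback inhibitor of receptor tyrosine kinases, measured 1.56 and 2.20 against 2.11 and 1.05 CPM. Both were sparse, with 10 counts of Ptgs2 and 22 of Spry4 in knockout 2. None of the 4 passed the edgeR threshold between the groups, where the log2 fold changes ran from -0.71 ± 0.53 (Ptgs2) to 0.17 ± 0.33 (Ier5l).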
